A study of Mus musculus with 9 samples.

Results

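The collagen genes of the mouse lung were followed through ventilator-induced lung injury (VILI), the damage that mechanical ventilation itself does to the lung. The members were the protein-coding genes whose symbol is Col, a number, the letter a and a number, which gave 44 of the 27203 genes in the expression table. Lungs came from male C57BL/6 mice of 6 to 8 weeks, and each of the 9 libraries was made from total lung RNA. Control mice (3 libraries) were intubated but not ventilated. VILI 0 hours mice (3 libraries) were killed right after 4 hours of ventilation at a high tidal volume of 20 ml/kg, and VILI 6 hours mice (3 libraries) were killed 6 hours after the same ventilation ended. All mice were intubated, and the control mice were not ventilated even at a low tidal volume, so the comparison with control covers ventilation as such as well as its high stretch. Whole lung was sequenced, so fewer cells of a type and less RNA per cell cannot be told apart in any value below. The comparisons of each VILI group with control share the 3 control libraries, so they are not independent of each other.

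Collagens are triple-helical proteins of the extracellular matrix, each built from 3 alpha chains that are the products of the Col genes. Fibrillar collagens (types I, II, III, V, XI, XXIV and XXVII) form the cross-banded fibrils that bear tension in the lung interstitium, airway walls and vessels. Type IV collagen forms the sheet-like network of basement membranes, including the one shared by alveolar epithelium and capillary endothelium. The remaining families sit on fibril surfaces, form beaded microfilaments, anchor basement membranes to the stroma or span the cell membrane.

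Levels are given as FPKM, fragment counts scaled to the length of the transcript and the size of the library, summed over all transcript rows of a gene. FPKM values are per length, so levels of different genes can be set side by side. Of the 44 members, 36 had a mean of at least 0.1 FPKM over the 9 libraries and were tested. FPKM values hold no read counts and the read totals that the study lists per library were not used here, so precision rests on the spread of 3 libraries per group. The lung label was borne out by its markers: 9 alveolar type 2 genes summed to between 15531 and 19452 FPKM in the 9 libraries. Library VILI 6 hours replicate 1 stood apart from its group. Its rank correlation over all genes was 0.977 to 0.979 with the control libraries but 0.944 to 0.963 with the other VILI 6 hours libraries, so calls that change without it are given both ways.

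Basement membrane and fibrillar collagens made up most of the collagen signal in every library, and type IV collagen was the larger of these in each. Its share was above that of every control library in 5 of the 6 ventilated libraries, all but VILI 6 hours replicate 1. The 6 type IV genes together held 586 ± 14.7 FPKM in control, 662 ± 28.3 at 0 hours and 742 ± 247 at 6 hours (mean ± SD, n = 3). The 11 fibrillar genes held 523 ± 60.0 FPKM in control, 397 ± 46.0 at 0 hours and 399 ± 77.4 at 6 hours, and the 27 other collagens 311 ± 37.2 FPKM in control, 259 ± 21.9 at 0 hours and 267 ± 43.5 at 6 hours. In shares of all collagen FPKM, type IV went from 41.4 ± 2.45% in control to 50.3 ± 2.82% at 0 hours and 51.8 ± 11.4% at 6 hours. Fibrillar collagens held 36.7 ± 1.46%, 30.1 ± 2.20% and 28.6 ± 5.71% of it. The control and VILI 0 hours libraries did not overlap in either share or in either sum. At 6 hours 1 library lay apart: type IV genes summed to 458, 902 and 867 FPKM, with replicate 1 below every control library and the others above all control and VILI 0 hours libraries.

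**Figure D1:**
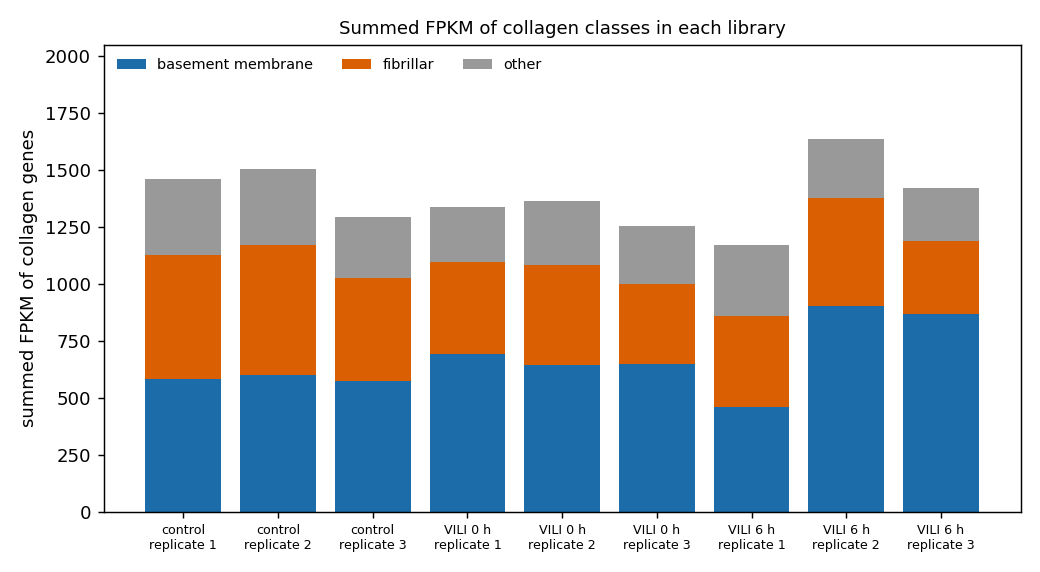
Summed FPKM (y axis) of type IV (basement membrane), fibrillar and other collagen genes in each of the 9 libraries (x axis), as stacked bars from 0. The fibrillar part is lower in all VILI 0 hours libraries than in all control libraries, and the type IV part is highest in VILI 6 hours replicates 2 and 3 and lowest in VILI 6 hours replicate 1.

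Single genes were tested with limma on log2(FPKM + 0.1). A gene is called lower or higher where its P was under 0.05 before adjustment, which is how the study set its threshold. For VILI 0 hours vs control, 7 of the 36 members were lower and 0 were higher, against 9.35% of all genes tested called lower and 6.81% called higher (16.2% either way). For VILI 6 hours vs control, 10 were lower and 0 higher, against 12.2% lower and 8.17% higher over all genes (20.4% either way). For VILI 6 hours vs VILI 0 hours, 1 member was lower and 0 were higher, where 4.94% of all genes were lower and 5.06% higher (10% either way). None of these calls passed an adjusted p under 0.05 with limma over all genes (0.284%, 0.702% and 0% of all genes did), and the lowest adjusted p of a member was 0.129 at 0 hours and 0.111 at 6 hours against control, and 0.443 between the VILI groups. The median log2 fold change of the members was -0.24 at 0 hours and -0.22 at 6 hours against control, where the median of all genes tested was -0.070 and -0.089. Between the VILI groups it was -0.0060, against -0.024 over all genes.

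Without VILI 6 hours replicate 1, 9 members were lower and 3 higher at 0 hours (14.2% and 8.98% of all genes), and 12 were lower and 2 higher at 6 hours (26% and 12.8% of all genes). The 3 groups share 1 estimate of the spread, to which that library contributes, so the test at 0 hours moves with it. At an adjusted p under 0.05, 2 members were lower and 1 higher at 0 hours in that fit, against 3.45% and 3.48% of all genes. There 7 members were lower and 2 higher at an adjusted p under 0.05 for VILI 6 hours vs control, where 15.1% of all genes were lower and 8.15% higher. Groups that did not overlap give a count that needs no shared spread. All 3 VILI 0 hours libraries were below all control libraries in 13 of the 36 members and above them in 4, against 21.6% and 12% of all genes. At 6 hours 9 members were below and 0 above, against 15% and 9.64%. Between the VILI groups 1 was below and 0 above at 6 hours, against 6.28% and 6.25%. When each library was centred on its own median, the median of all genes moved from -0.070 to 0.045 at 0 hours and from -0.089 to 0.038 at 6 hours, and 5 members were lower and 0 higher at each time. The median of the members was then -0.13 and -0.092. It was -0.15 and -0.11 with a pseudocount of 1, and at 6 hours -0.14 with no filter and -0.12 without VILI 6 hours replicate 3. Col1a2 and Col4a5 were not called at either time with centring, nor Col5a2, Col12a1 and Col6a6 at 6 hours. Over all genes that centring changed 1319 higher and 1811 lower at 0 hours to 1944 and 1232, and 1583 higher and 2369 lower at 6 hours to 2270 and 1640. With control replicate 2 left out, 2 members (Col27a1 and Col3a1) were called at 0 hours and 4 (Col12a1, Col27a1, Col3a1 and Col8a1) at 6 hours. All of these were lower, where 1062 and 1382 of the 19378 genes tested were lower. Leaving out control replicate 1 gave 3 lower members at 0 hours and 6 at 6 hours (1116 and 1511 of all genes). Leaving out VILI 0 hours replicate 3 gave 3 at 0 hours (1191 of all genes lower), and leaving out VILI 6 hours replicate 3 gave 5 at 6 hours (1450 lower).

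**Figure D2:**
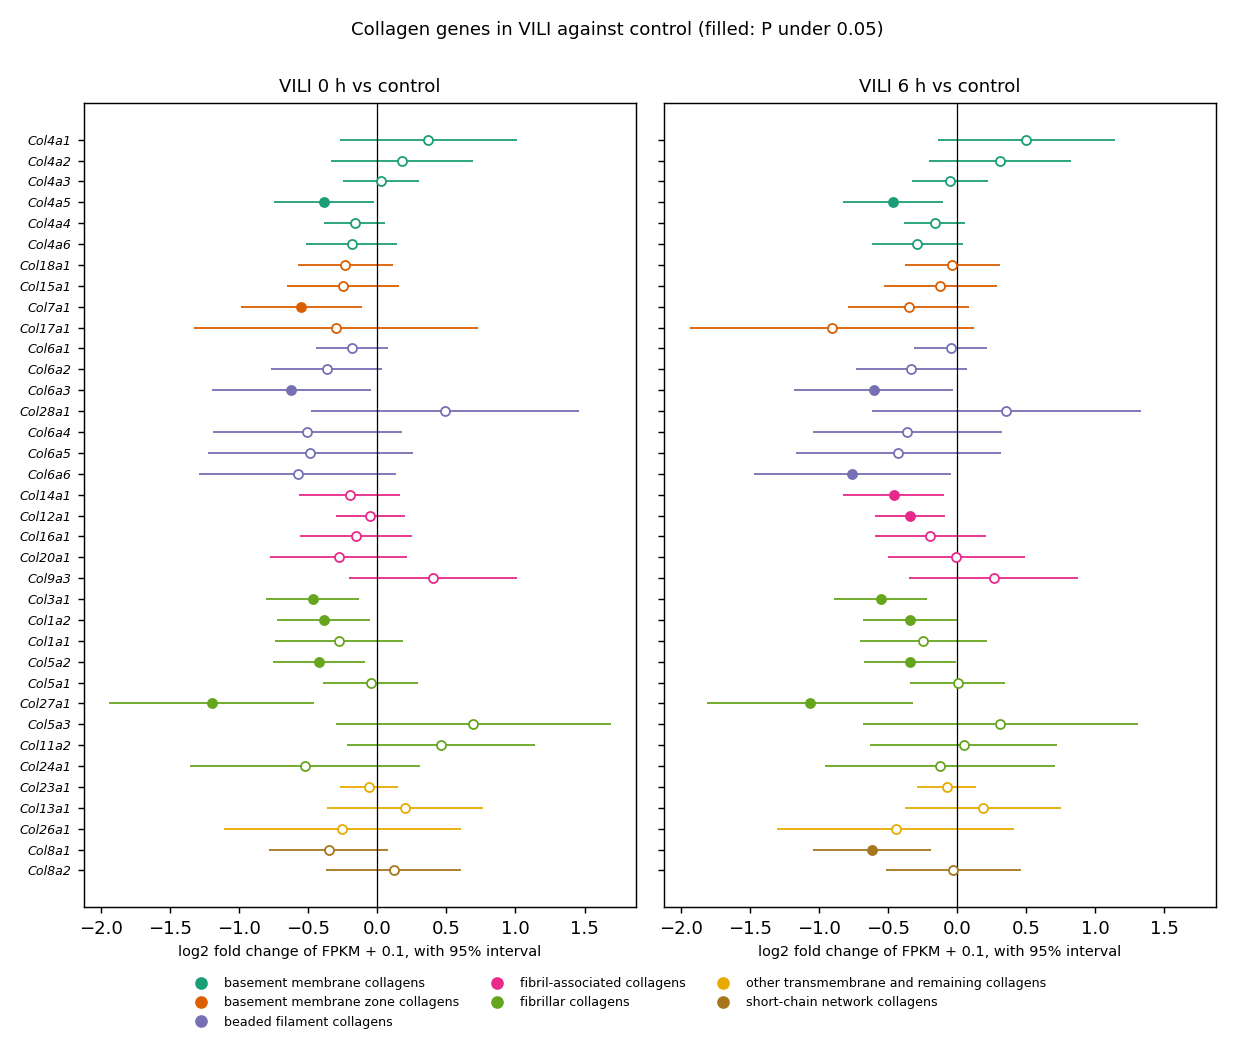
Log2 fold change of FPKM + 0.1 (x axis) with its 95% interval for the 36 tested collagen genes (y axis), coloured by class, for VILI 0 hours vs control (left) and VILI 6 hours vs control (right). Filled points have a P under 0.05, and all 7 at 0 hours and all 10 at 6 hours lie below 0.

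Of the 9 fibrillar genes tested, 4 were lower at 0 hours (Col27a1, Col3a1, Col5a2 and Col1a2), and 4 at 6 hours (Col3a1, Col27a1, Col5a2 and Col1a2), against 9.35% and 12.2% of all genes lower, with class medians of -0.39 and -0.24 on the log2 scale. Col3a1 encodes the only chain of type III collagen, which is plentiful in stretchable tissues such as lung and vessel wall. Its level was 237, 251 and 203 FPKM in the control libraries, 170.1, 187 and 143 in the VILI 0 hours libraries and 152, 187 and 134 in the VILI 6 hours libraries. Neither VILI group overlapped control. On the log2 scale it changed by -0.47 (SE 0.15, called, adjusted p = 0.181) at 0 hours and -0.55 (SE 0.15, called, adjusted p = 0.111) at 6 hours, and -0.53 (called, adjusted p = 0.0490) at 6 hours without replicate 1. With centring as well it was -0.32 and not called. An exact two-sided permutation test of 3 against 3 libraries gave 0.1 for both, the smallest p that it can give.

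The 250 bases before the RefSeq start of Col3a1 (GRCm38.p6, chr1:45311288-45311537, plus strand) are shown because Col3a1 was the most abundant collagen called lower. RefSeq windows were at hand for 35 of the 44 members. Capitals mark matches on either strand to TATAAA, the core of the promoter motif named TATA box. The letters CCAAT, which form the motif of the same name, and the letters GGGCGG, which form the GC box, were searched in the same way, and no match overlaps another here.
Col3a1: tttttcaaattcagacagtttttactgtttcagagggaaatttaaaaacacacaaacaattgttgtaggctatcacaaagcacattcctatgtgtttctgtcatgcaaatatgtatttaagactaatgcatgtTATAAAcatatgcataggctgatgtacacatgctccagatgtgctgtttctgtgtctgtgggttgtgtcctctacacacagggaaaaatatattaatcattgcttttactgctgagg
The window holds 1 match to the TATA box and 0 to either other motif, and it has a GC content of 35.2%. Among 32851 windows of this length over all genes, 12.4% held the TATA box, 33.8% the CCAAT motif and 32.7% the GC box. Among the 38 windows of collagen genes these shares were 13.2%, 34.2% and 57.9%. A match describes the letters only.

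Type I collagen, the main fibrillar collagen of most tissues, is built from the chains of Col1a1 and Col1a2. Col1a2 was 149, 156 and 124 FPKM in the control libraries, 109, 122 and 96.5 in the VILI 0 hours libraries and 112, 134 and 94.3 in the VILI 6 hours libraries, with VILI 0 hours below all control libraries and an overlap at 6 hours. Its log2 fold change was -0.39 (SE 0.15, called, adjusted p = 0.251) at 0 hours and -0.34 (SE 0.15, called, adjusted p = 0.241) at 6 hours, and the latter was -0.34 (not called, adjusted p = 0.171) without replicate 1. The call of Col1a2 at 0 hours was lost on leaving out control replicates 1 or 2 or VILI 0 hours replicates 1 or 3 (-0.39 to -0.30), and 13 of the 20 alternatives kept it. That at 6 hours was lost on leaving out control replicates 1 or 2 or VILI 0 hours replicate 1 or VILI 6 hours replicates 1 or 3 (-0.34 to -0.22, the smallest without VILI 6 hours replicate 3), and 10 of the 20 alternatives kept it. Col1a1 was 107, 110.1 and 83.7 FPKM in the control libraries, 84.4, 91.4 and 71.4 in the VILI 0 hours libraries and 87.9, 110.0 and 61.2 in the VILI 6 hours libraries and overlapped control at both times, with fitted log2 differences of -0.28 (adjusted p = 0.543) and -0.24 (adjusted p = 0.508) that did not pass the test and 95% intervals of -0.74 to 0.18 and -0.70 to 0.22. With the replicate block Col1a1 was called lower at 0 hours. The Col3a1 to Col1a1 ratio was 2.31 ± 0.107 in control, 2.02 ± 0.0196 at 0 hours and 1.87 ± 0.276 at 6 hours, and both VILI groups were below all control libraries in it.

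Type V collagen, which sets fibril diameter by nucleating type I fibrils, had 1 chain that was called. Col5a2 was 28.0, 30.4 and 24.2 FPKM in the control libraries, 20.8, 21.8 and 18.8 in the VILI 0 hours libraries and 24.8, 23.6 and 17.4 in the VILI 6 hours libraries. It was lower at 0 hours, with no overlap and a log2 fold change of -0.42 (SE 0.15, called, adjusted p = 0.211), and at 6 hours, with an overlap, -0.34 (SE 0.15, called, adjusted p = 0.239). The latter, without VILI 6 hours replicate 1, was -0.44 (called, adjusted p = 0.0653). The call of Col5a2 at 0 hours was lost on leaving out control replicates 1 or 2 or VILI 0 hours replicate 3 (-0.41 to -0.35), and 17 of the 20 alternatives kept it. That at 6 hours was lost on leaving out control replicates 1 or 2 or VILI 0 hours replicates 1, 2 or 3 or VILI 6 hours replicate 3 (-0.34 to -0.18, the smallest without VILI 6 hours replicate 3), and 9 of the 20 alternatives kept it. Its partner Col5a1, also named after its values were seen, did not pass the test, with -0.046 (adjusted p = 0.913) and 0.0053 (adjusted p = 0.987) and a 95% interval of -0.34 to 0.35 at 6 hours. The Col5a1 to Col5a2 ratio was 0.537 ± 0.0430 in control, 0.699 ± 0.0681 at 0 hours and 0.684 ± 0.0763 at 6 hours, with both VILI groups above all control libraries. More chain ratios were computed than have values in the text. Those of Col1a1 to Col1a2, Col4a1 to Col4a3, Col4a3 to Col4a4 and Col6a1 to Col6a2 overlapped control at 6 hours. They were apart from control at 0 hours, and Col4a4 to Col4a5 at both times. How often ratios of other gene pairs separate was not computed. Col5a2 lies 24614 bases from Col3a1 on chromosome 1, tail to tail, by GENCODE M21. Col5a3, a minor type V chain named after its values were seen, was 0.844, 0.773 and 0.584 FPKM in the control libraries, 1.07, 1.17 and 1.51 in the VILI 0 hours libraries and 2.07, 0.822 and 0.441 in the VILI 6 hours libraries. It was above all control libraries at 0 hours with a log2 fold change of 0.69 (SE 0.44, not called, adjusted p = 0.478), and 0.69 (called, adjusted p = 0.167) without VILI 6 hours replicate 1.

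Col27a1 had the lowest log2 fold change of the tested members at both times. It encodes type XXVII collagen, a fibrillar collagen best known from developing cartilage, and lies at chr4:63214004-63334991 (GRCm38). Its level was 6.37, 5.22 and 5.45 FPKM in the control libraries, 2.597, 2.42 and 2.23 in the VILI 0 hours libraries and 4.98, 2.26 and 1.65 in the VILI 6 hours libraries. All VILI libraries were below all control libraries, and replicate 1 at 6 hours was nearest to control. Its log2 fold change was -1.20 (SE 0.33, called, adjusted p = 0.129) at 0 hours and -1.06 (SE 0.33, called, adjusted p = 0.139) at 6 hours. These were, without VILI 6 hours replicate 1, -1.20 (called, adjusted p = 0.00472) and -1.51 (called, adjusted p = 0.00128). Of the remaining fibrillar genes, Col11a2 and Col24a1 were each under 1 FPKM in every library and passed no test, and Col2a1 and Col11a1 were below the filter.

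**Figure D3:**
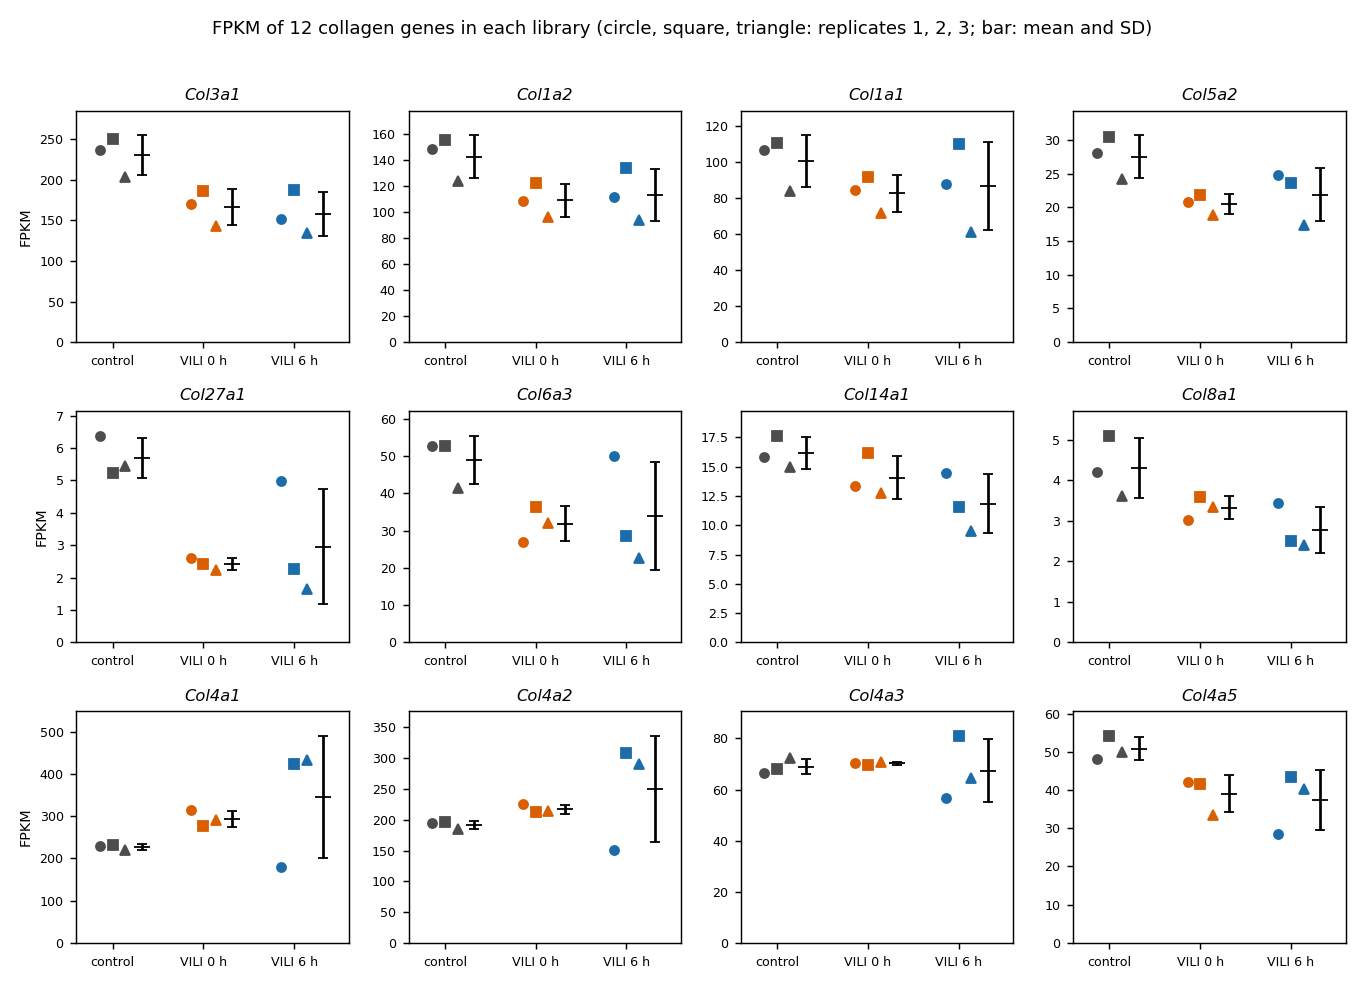
FPKM (y axis, from 0) of 12 collagen genes in each control, VILI 0 h and VILI 6 h library (x axis), with replicates 1, 2 and 3 as circle, square and triangle and the mean and SD of 3 libraries beside them. Col3a1 and Col27a1 are lower in every VILI library than in every control library, and Col4a1 in VILI 6 h runs from 179.6 to 434 FPKM.

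Type VI collagen forms beaded microfilaments around cells and near basement membranes, as assemblies of the Col6a1 and Col6a2 chains with a longer chain such as that of Col6a3. Of the 7 beaded filament genes tested, 1 was lower at 0 hours and 2 at 6 hours (9.35% and 12.2% of all genes were lower), both long-chain genes. Col6a3 was 52.7, 52.6 and 41.5 FPKM in the control libraries, 27.0, 36.4 and 32.1 in the VILI 0 hours libraries and 50.1, 28.6 and 22.7 in the VILI 6 hours libraries. All VILI 0 hours libraries were below all control libraries, whereas at 6 hours replicate 1 lay among the control libraries and the others lay below them. The log2 fold change was -0.62 (SE 0.26, called, adjusted p = 0.275) at 0 hours and -0.60 (SE 0.26, called, adjusted p = 0.228) at 6 hours, and without VILI 6 hours replicate 1 it was -0.62 (called, adjusted p = 0.0400) and -0.93 (called, adjusted p = 0.00695). The call of Col6a3 at 0 hours was lost on leaving out control replicates 1 or 2 or VILI 0 hours replicates 1 or 3 (-0.63 to -0.51), and 14 of the 20 alternatives kept it. That at 6 hours was lost on leaving out control replicates 1 or 2 or VILI 0 hours replicates 1 or 3 or VILI 6 hours replicates 2 or 3 (-0.60 to -0.36, the smallest without VILI 6 hours replicate 3), and 10 of the 20 alternatives kept it.

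The partner chains were not called with all libraries, and their difference from Col6a3 was not tested. Col6a1 was 98.1, 100.01 and 78.5 FPKM in the control libraries, 76.6, 91.0 and 75.5 in the VILI 0 hours libraries and 91.0, 89.0 and 86.1 in the VILI 6 hours libraries, with fitted log2 differences of -0.18 (adjusted p = 0.479) and -0.048 (adjusted p = 0.836), neither past the test, and at 0 hours -0.29 (called) without control replicate 3. Col6a2 was 77.8, 79.5 and 60.2 FPKM in the control libraries, 52.1, 64.2 and 52.0 in the VILI 0 hours libraries and 73.5, 54.5 and 46.6 in the VILI 6 hours libraries, with -0.37 (adjusted p = 0.355) and -0.33 (adjusted p = 0.314), and without VILI 6 hours replicate 1 -0.37 (called, adjusted p = 0.147) and -0.51 (called, adjusted p = 0.0392). The Col6a3 to Col6a1 ratio was 0.537, 0.526 and 0.529 in the control libraries, 0.352, 0.400 and 0.425 at 0 hours and 0.550, 0.322 and 0.264 at 6 hours. It was lower than in every control library in all ventilated libraries but VILI 6 hours replicate 1. Col6a6, another long-chain gene, was close to the filter at 0.229, 0.246 and 0.231 FPKM in the control libraries, 0.123, 0.154 and 0.101 in the VILI 0 hours libraries and 0.143, 0.0616 and 0.0987 in the VILI 6 hours libraries. It was lower at 6 hours, with a log2 fold change of -0.76 (SE 0.32, called, adjusted p = 0.226), and -0.90 (called, adjusted p = 0.0895) without replicate 1. At 0 hours -0.58 (adjusted p = 0.412) did not pass, and it was called with no filter, with protein-coding genes only and without the eBayes trend. The call of Col6a6 at 6 hours was lost on leaving out control replicates 1, 2 or 3 or VILI 0 hours replicates 2 or 3 or VILI 6 hours replicates 2 or 3 (-0.77 to -0.61), and 6 of the 19 alternatives kept it. Col6a4, Col6a5 and the related Col28a1 were below 1 FPKM in every library and were not called. With eBayes fitted without the trend Col6a4 was called lower at 0 hours, at -0.51.

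The bases before the start of Col6a3 (RefSeq, GRCm38.p6, chr1:90843972-90844221, minus strand, printed in the direction of the gene) are shown beside those of Col3a1, since both genes were called lower at both times.
Col6a3: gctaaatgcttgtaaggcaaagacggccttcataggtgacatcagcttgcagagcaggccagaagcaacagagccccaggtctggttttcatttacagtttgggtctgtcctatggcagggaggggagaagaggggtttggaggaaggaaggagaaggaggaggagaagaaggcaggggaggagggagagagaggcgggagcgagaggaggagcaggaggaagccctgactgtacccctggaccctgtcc
This window has a GC content of 57.2%, against 35.2% for Col3a1. It holds none of the 3 motifs, so no letter is in capitals, and this says only that those letters are not in this window.

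Fibril-associated collagens lie on the surface of type I and III fibrils. Of 5 genes tested, 0 were lower at 0 hours and 2 at 6 hours, where 9.35% and 12.2% of all genes were lower. Col14a1 was 15.8, 17.6 and 14.9 FPKM in the control libraries, 13.3, 16.2 and 12.7 in the VILI 0 hours libraries and 14.5, 11.6 and 9.498 in the VILI 6 hours libraries, with no overlap of VILI 6 hours and control, and fitted log2 differences of -0.20 (adjusted p = 0.581) at 0 hours and -0.46 (SE 0.16, called, adjusted p = 0.175) at 6 hours. When VILI 6 hours replicate 1 was left out, the latter was -0.61 (called, adjusted p = 0.0180). The call of Col14a1 at 6 hours was lost on leaving out control replicate 2 or VILI 6 hours replicate 3 (-0.39 to -0.31), and 17 of the 20 alternatives kept it. Col12a1 was 12.7, 12.5 and 12.7 FPKM in the control libraries, 11.9, 11.5 and 13.3 in the VILI 0 hours libraries and 9.53, 11.3 and 9.23 in the VILI 6 hours libraries, a narrow range in which all VILI 6 hours libraries were below all others. Its log2 fold change was -0.050 (adjusted p = 0.865) at 0 hours and -0.34 (SE 0.11, called, adjusted p = 0.155) at 6 hours, and -0.31 (called, adjusted p = 0.0899) without replicate 1. It was the 1 member called for VILI 6 hours vs VILI 0 hours, at -0.29 (SE 0.11, called, adjusted p = 0.443), and was not called there without VILI 6 hours replicate 1, at -0.26 (not called, adjusted p = 0.239). The call of Col12a1 between the VILI groups was lost on leaving out VILI 0 hours replicate 3 or VILI 6 hours replicates 1 or 3 (-0.26 to -0.23), and 12 of the 20 alternatives kept it.

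The call of Col12a1 depends on how its 3 transcript rows are combined. The row with 79.7% of its FPKM had means of 10.6 in control, 8.28 at 0 hours and 8.95 at 6 hours, and another had 1.51, 3.51 and 0.637, all 3 groups overlapping in both. With the highest row alone the difference between VILI 6 hours and VILI 0 hours was 0.14 and did not pass, and that between VILI 6 hours and control was -0.24, no longer called. The latter was not called with median-centred libraries either, at -0.21. Col16a1 was 12.4, 12.1 and 9.96 FPKM in the control libraries, 9.26, 11.3 and 10.3 in the VILI 0 hours libraries and 12.3, 10.6 and 7.603 in the VILI 6 hours libraries and passed no test, with -0.15 (adjusted p = 0.713) and -0.19 (adjusted p = 0.548). Col20a1 and Col9a3 were tested and not called, and Col9a1, Col9a2, Col19a1 and Col22a1 were below the filter. Col9a3, named after its values were seen, had all VILI 0 hours libraries above control, at 0.40 (adjusted p = 0.507), and was called higher there, the 1 member so, when eBayes was fitted without the trend.

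Type VIII collagen is a short-chain collagen of vessel walls and subendothelial matrix, with chains from Col8a1 and Col8a2. Col8a1 was 4.20, 5.10 and 3.62 FPKM in the control libraries, 3.03, 3.59 and 3.35 in the VILI 0 hours libraries and 3.44, 2.50 and 2.41 in the VILI 6 hours libraries, below all control libraries in both VILI groups. Its log2 fold change was -0.35 (adjusted p = 0.399) at 0 hours and -0.62 (SE 0.19, called, adjusted p = 0.139) at 6 hours, and without VILI 6 hours replicate 1 it was -0.35 (called, adjusted p = 0.213) and -0.77 (called, adjusted p = 0.0160). Col8a2 was 3.11, 3.16 and 2.603 FPKM in the control libraries, 2.96, 3.45 and 3.23 in the VILI 0 hours libraries and 4.05, 2.68 and 2.22 in the VILI 6 hours libraries and did not pass at either time, at 0.12 (adjusted p = 0.830) and -0.027 (adjusted p = 0.953). The latter was -0.26 (not called, adjusted p = 0.271) without VILI 6 hours replicate 1. The Col8a1 to Col8a2 ratio was 1.45 ± 0.141 in control, 1.03 ± 0.00970 at 0 hours and 0.957 ± 0.120 at 6 hours, with both VILI groups below all control libraries. Col10a1, the short-chain collagen of hypertrophic cartilage, was under the filter at 0.169, 0.135 and 0.0698 FPKM in the control libraries, 0.0254, 0 and 0.0438 in the VILI 0 hours libraries and 0, 0.0158 and 0.0161 in the VILI 6 hours libraries. With no filter it was called lower at both times.

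Type IV chains are made from 6 genes that lie in head-to-head pairs. The protomer of Col4a1 and Col4a2 chains is found in nearly all basement membranes, that of Col4a3, Col4a4 and Col4a5 in the kidney filter and the alveolus, and that of Col4a5 and Col4a6 in fewer sites such as smooth muscle. By GENCODE M21 (GRCm38), Col4a1 lies at chr8:11198423-11312826 on the minus strand and Col4a2 at chr8:11312805-11449287 on the plus strand, so that the starts overlap by 22 bases. Col4a3 (chr1:82586921-82722059) and Col4a4 (chr1:82448423-82586849) start 71 bases apart, and Col4a5 (chrX:141475385-141689234) and Col4a6 (chrX:141165403-141474076) start 1308 bases apart. The stretch at the shared start of Col4a1 and Col4a2 (RefSeq, GRCm38.p6, chr8:11312801-11312830, plus strand) is shown with the overlap in capitals, as the 2 genes were the most abundant members.
Col4a1 and Col4a2: cggcAGTGCGCGGGCGGCGTCTCCAAgggg
The overlap is 0.295% of the exon bases of Col4a1 and 0.332% of those of Col4a2.

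Col4a1 had the highest mean of all collagens over the 9 libraries and was above every control library in 5 of the 6 ventilated libraries. Its level was 228, 232 and 219 FPKM in the control libraries, 314, 276 and 289.8 in the VILI 0 hours libraries and 179.6, 423 and 434 in the VILI 6 hours libraries. All VILI 0 hours libraries were above all control libraries. At 6 hours replicates 2 and 3 were the highest of all and replicate 1 the lowest of all. Its log2 fold change was 0.37 (SE 0.29, not called, adjusted p = 0.560) at 0 hours and 0.50 (SE 0.29, not called, adjusted p = 0.337) at 6 hours. The fit of the 6 control and VILI 0 hours libraries alone had 733 genes higher and 864 lower at an adjusted p under 0.05. Col4a1 was among the higher there, and Col27a1 and Col6a3 were among the lower. Without VILI 6 hours replicate 1 the values of Col4a1 were 0.37 (called, adjusted p = 0.0273) at 0 hours and 0.92 (called, adjusted p = 5.5e-04) at 6 hours, and 0.55 (called, adjusted p = 0.0239) for VILI 6 hours vs VILI 0 hours.

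Col4a2 lay in the same way, with smaller differences. It was 195, 197 and 185 FPKM in the control libraries, 225, 212 and 214 in the VILI 0 hours libraries and 151, 308 and 289.9 in the VILI 6 hours libraries, again with VILI 0 hours above all control libraries. The log2 fold change was 0.18 (SE 0.23, not called, adjusted p = 0.744) and 0.31 (SE 0.23, not called, adjusted p = 0.448), and without VILI 6 hours replicate 1 it was 0.18 (called, adjusted p = 0.182) and 0.64 (called, adjusted p = 0.00164). The Col4a1 to Col4a2 ratio was 1.17, 1.18 and 1.19 in control, 1.39, 1.30 and 1.35 at 0 hours and 1.19, 1.37 and 1.497 at 6 hours. All ventilated libraries were above every control library, replicate 1 at 6 hours the least, at 1.1875 against 1.1862 in the highest control library.

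Of the 6 type IV genes, 1 was called lower at each time with all libraries (9.35% and 12.2% of all genes were lower), and it was Col4a5. Its level was 48.3, 54.1 and 50.0 FPKM in the control libraries, 42.2, 41.5 and 33.4 in the VILI 0 hours libraries and 28.6, 43.4 and 40.2 in the VILI 6 hours libraries, below all control libraries in both VILI groups, with log2 fold changes of -0.38 (SE 0.16, called, adjusted p = 0.279) at 0 hours and -0.46 (SE 0.16, called, adjusted p = 0.169) at 6 hours. Replicate 1 at 6 hours was the lowest, and without it the latter was -0.28 (called, adjusted p = 0.114). The call of Col4a5 at 0 hours was lost on leaving out control replicates 1, 2 or 3 or VILI 0 hours replicate 3 (-0.42 to -0.28), and 14 of the 20 alternatives kept it. That at 6 hours was lost on leaving out control replicate 2 (-0.42) and with centring, with or without VILI 6 hours replicate 1. The smallest change over the 20 alternatives was -0.070, and 17 of them kept the call. Col4a3 was 66.6, 68.1 and 72.2 FPKM in the control libraries, 70.3, 69.6 and 70.8 in the VILI 0 hours libraries and 56.8, 80.9 and 64.5 in the VILI 6 hours libraries and Col4a4 38.7, 45.4 and 41.0 FPKM in the control libraries, 37.3, 37.3 and 36.8 in the VILI 0 hours libraries and 35.9, 41.2 and 34.7 in the VILI 6 hours libraries. Neither was called, with Col4a3 at 0.026 (adjusted p = 0.937) and -0.049 (adjusted p = 0.839) and Col4a4 at -0.16 (adjusted p = 0.449) and -0.16 (adjusted p = 0.363), although all VILI 0 hours libraries had less Col4a4 than all control libraries. Col4a3 was called higher at 6 hours, at 0.28, with centring and without VILI 6 hours replicate 1, and Col4a4 lower at 6 hours, at -0.24, without VILI 6 hours replicate 2. The 95% interval for Col4a3 at 0 hours was -0.25 to 0.30, and the gene shares 5.65% of its exon bases with C430014B12Rik on the other strand. The Col4a3 to Col4a5 ratio was 1.36 ± 0.0954 in control, 1.82 ± 0.257 at 0 hours and 1.82 ± 0.197 at 6 hours, above all control libraries in both VILI groups. Col4a6, the least abundant chain, was 6.48, 6.00 and 5.92 FPKM in the control libraries, 5.34, 5.84 and 4.97 in the VILI 0 hours libraries and 5.78, 5.17 and 4.17 in the VILI 6 hours libraries, below all control libraries at both times, with fitted log2 differences of -0.19 (adjusted p = 0.570) and -0.29 (adjusted p = 0.291) that did not pass the test, and the latter was -0.39 (called, adjusted p = 0.0719) without VILI 6 hours replicate 1.

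Collagens of the basement membrane zone link that sheet to the stroma, and of 4 genes 1 was lower at 0 hours and 0 were at 6 hours (9.35% and 12.2% of all genes). Col7a1 encodes the anchoring fibrils beneath epithelia. It was 2.26, 2.58 and 2.14 FPKM in the control libraries, 1.74, 1.37 and 1.57 in the VILI 0 hours libraries and 2.04, 1.96 and 1.45 in the VILI 6 hours libraries, with both VILI groups below all control libraries, and log2 fold changes of -0.55 (SE 0.19, called, adjusted p = 0.213) at 0 hours and -0.35 (SE 0.19, not called, adjusted p = 0.329) at 6 hours. The call of Col7a1 at 0 hours was lost on leaving out control replicate 2 or VILI 0 hours replicate 2 (-0.48 to -0.46), and 18 of the 20 alternatives kept it. Col18a1, whose C-terminal piece is endostatin, was 11.8, 9.57 and 8.99 FPKM in the control libraries, 7.599, 8.88 and 9.26 in the VILI 0 hours libraries and 11.4, 9.65 and 8.60 in the VILI 6 hours libraries and passed no test, with -0.23 (adjusted p = 0.494) and -0.034 (adjusted p = 0.914). Its transcript rows had means in opposite directions. The row with most of its FPKM had group means of 4.39, 6.37 and 6.98 FPKM in control and then at 0 and 6 hours, and another had 2.41, 0.164 and 0.267. That 2.41 rests on control replicate 1, at 6.72 FPKM against 0.143 and 0.355 in the other control libraries. The same library was the lowest of all in the main row, at 2.18. Both rows overlapped between the groups. Col15a1, a related multiplexin, was 5.87, 5.10 and 4.18 FPKM in the control libraries, 3.40, 4.32 and 5.03 in the VILI 0 hours libraries and 4.90, 4.31 and 4.58 in the VILI 6 hours libraries, with -0.25 (adjusted p = 0.539) and -0.12 (adjusted p = 0.720). Col17a1, the hemidesmosome collagen of basal epithelial cells, was named after its values were seen. It was 1.28, 1.08 and 1.04 FPKM in the control libraries, 0.782, 0.848 and 1.09 in the VILI 0 hours libraries and 1.43, 0.361 and 0.299 in the VILI 6 hours libraries, so that replicate 1 at 6 hours held the highest and the other VILI 6 hours libraries the lowest values of all. The log2 fold change at 6 hours was -0.91 (SE 0.46, not called, adjusted p = 0.288), and -1.52 (called, adjusted p = 0.00480) without replicate 1.

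None of the membrane-spanning and remaining collagens was called. Col23a1 was 16.5, 14.7 and 14.8 FPKM in the control libraries, 14.4, 14.4 and 15.3 in the VILI 0 hours libraries and 13.9, 14.8 and 14.9 in the VILI 6 hours libraries, and its 95% interval was -0.27 to 0.15 at 0 hours and -0.29 to 0.13 at 6 hours on the log2 scale. Col13a1, a collagen of cell-matrix contacts, was 14.5, 13.0 and 9.41 FPKM in the control libraries, 13.1, 12.6 and 16.4 in the VILI 0 hours libraries and 20.5, 10.6 and 12.1 in the VILI 6 hours libraries, with 0.20 (adjusted p = 0.733) and 0.19 (adjusted p = 0.684). The latter was -0.095 (not called, adjusted p = 0.744) without VILI 6 hours replicate 1. Col26a1 was 0.169, 0.256 and 0.0877 FPKM in the control libraries, 0.135, 0.179 and 0.0619 in the VILI 0 hours libraries and 0.110, 0.0971 and 0.0726 in the VILI 6 hours libraries, with -0.25 (adjusted p = 0.783) and -0.44 (adjusted p = 0.519). Col25a1 was below the filter. In all, 8 members were not tested for their low level: Col2a1, Col9a1, Col9a2, Col10a1, Col11a1, Col19a1, Col22a1 and Col25a1. Of the members, 32 had several rows and 12 a single row, and exons of other genes covered at most 6.07% of the exon bases of a member (Tcfl5 over Col9a3). Whether the counting used strand is not given in the sources used here, so reads of a gene and a partner on the other strand cannot be told apart there.

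**Figure D4:**
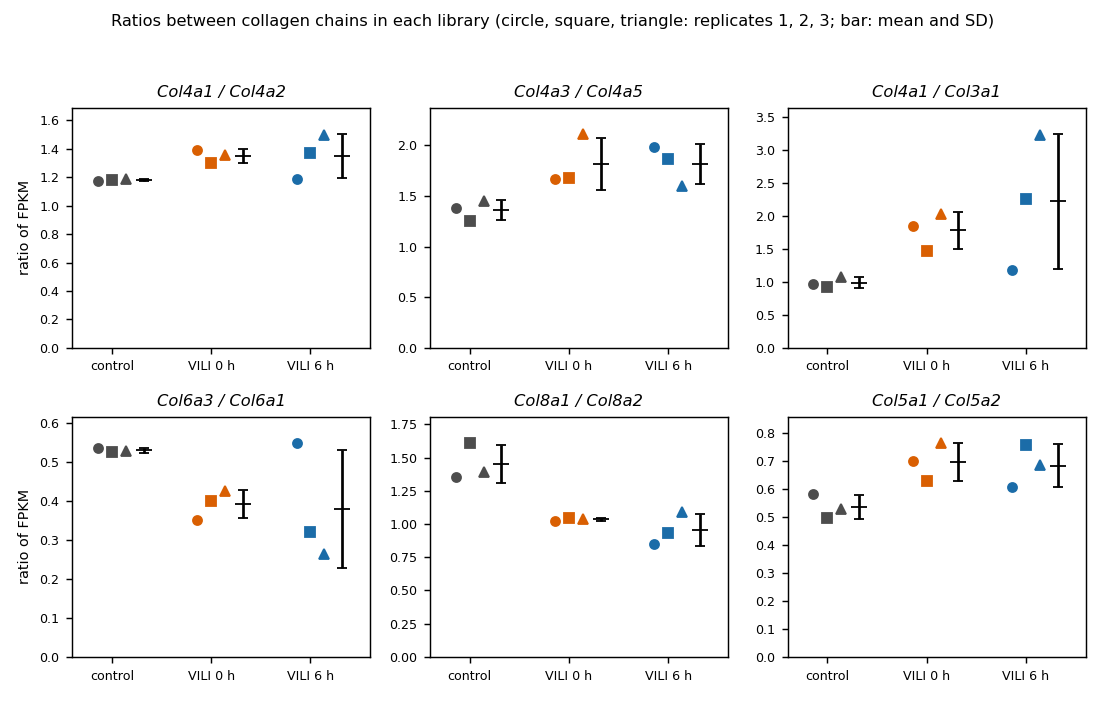
Ratio of FPKM (y axis, from 0) of 6 pairs of collagen chains in each library (x axis), with replicates 1, 2 and 3 as circle, square and triangle and the mean and SD of 3 libraries. Col4a1 to Col3a1 has a mean of 0.990 in control, 1.78 at 0 h and 2.23 at 6 h, and the 3 control libraries lie close together in Col4a1 to Col4a2 and Col6a3 to Col6a1.

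Between the ventilated groups Col12a1 alone was called with all libraries. Without VILI 6 hours replicate 1, 5 members were lower and 2 higher (13.9% and 8.55% of all genes). The lower ones were Col5a3, Col8a1, Col8a2, Col14a1 and Col17a1, and at an adjusted p under 0.05 Col4a1 and Col4a2 were higher and Col17a1 lower (0.934% and 0.903% of all genes). For Col3a1 the 95% interval of the difference with all libraries was -0.42 to 0.25, and for Col1a2 -0.29 to 0.38.

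The genes that make, finish and bind collagen and the cell markers were read against the same shares of all genes. With all libraries 6.81% were higher and 9.35% lower at 0 hours and 8.17% and 12.2% at 6 hours, and these were 8.98% and 14.2% at 0 hours and 12.8% and 26% at 6 hours without VILI 6 hours replicate 1. Procollagen chains are hydroxylated, glycosylated and folded in the endoplasmic reticulum. Of 18 such genes tested, 2 higher and 0 lower were called at 0 hours and 2 higher and 3 lower (2 and 7 without VILI 6 hours replicate 1) at 6 hours, with medians of -0.024 and -0.23. P4ha2, a catalytic subunit of prolyl 4-hydroxylase, was 11.8, 9.44 and 9.74 FPKM in control, 16.6, 16.6 and 19.8 at 0 hours and 17.4, 24.6 and 22.9 at 6 hours, without overlap with control and with log2 fold changes of 0.77 (SE 0.15, called, adjusted p = 0.0738) at 0 hours and 1.05 (SE 0.15, called, adjusted p = 0.0257) at 6 hours. Fkbp14, a prolyl isomerase of procollagen folding, was 5.18, 5.76 and 5.15 FPKM in control, 11.8, 13.6 and 20.96 at 0 hours and 6.00, 17.0 and 22.8 at 6 hours, at 1.47 (called, adjusted p = 0.141) and 1.29 (called, adjusted p = 0.150), and at 1.86 (called, adjusted p = 0.00156) at 6 hours without replicate 1. Colgalt2, a collagen galactosyltransferase, was lower at 6 hours at -1.17 (called, adjusted p = 0.0733), and P3h3, a prolyl 3-hydroxylase, at -0.26 (called, adjusted p = 0.234), which was -0.27 (not called, adjusted p = 0.132) without VILI 6 hours replicate 1. Of the genes named here, those at an adjusted p under 0.05 without VILI 6 hours replicate 1 were P4ha2 and Fkbp14 at 0 hours and P4ha2, Fkbp14 and Colgalt2 at 6 hours.

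Propeptides are then cut off outside the cell, which lets fibrils form. Of 7 such genes tested, 0 higher and 2 lower (1 and 2 without VILI 6 hours replicate 1) were called at 0 hours and 0 higher and 2 lower (2 and 3 without VILI 6 hours replicate 1) at 6 hours, with medians of -0.18 and -0.15. Without VILI 6 hours replicate 1 the median at 6 hours turned to 0.039. Pcolce2, an enhancer of the C-propeptide protease, was 54.1, 53.8 and 57.8 FPKM in control, 43.2, 44.0 and 41.0 at 0 hours and 38.0, 30.8 and 27.9 at 6 hours, at -0.37 (SE 0.12, called, adjusted p = 0.173) and -0.79 (SE 0.12, called, adjusted p = 0.0257). Tll1, a protease of that family, was at -0.83 (called, adjusted p = 0.140) and -1.05 (called, adjusted p = 0.0738). Lysyl oxidases cross-link the fibrils. Of the 5 genes, 2 higher and 0 lower were called at each time, with and without VILI 6 hours replicate 1, with medians of 0.094 and 0.22. Lox was 13.4, 20.04 and 17.2 FPKM in control, 65.0, 44.2 and 79.7 at 0 hours and 19.4, 129 and 156 at 6 hours. All VILI 0 hours libraries exceeded all control libraries, and at 6 hours replicate 1 lay within the control range while the others were the highest of all. The log2 fold change was 1.87 (SE 0.66, called, adjusted p = 0.211) and 2.13 (SE 0.66, called, adjusted p = 0.139), and without VILI 6 hours replicate 1 it was 1.87 (called, adjusted p = 0.00276) and 3.08 (called, adjusted p = 2.7e-04). Loxl4 was at 0.76 (called, adjusted p = 0.232) and 0.98 (called, adjusted p = 0.122). Of the genes named here, those at an adjusted p under 0.05 without VILI 6 hours replicate 1 were Pcolce2, Tll1 and Lox at 0 hours and Pcolce2, Tll1, Lox and Loxl4 at 6 hours.

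Of 11 proteins that bind collagen fibrils, 1 higher and 1 lower were called at 0 hours, 0 higher and 4 lower at 6 hours and 0 higher and 5 lower (0 and 4 without VILI 6 hours replicate 1) for VILI 6 hours vs VILI 0 hours, with medians of -0.17 at 0 hours and -0.47 at 6 hours. Between the VILI groups 5.06% of all genes were higher and 4.94% lower, and 8.55% and 13.9% without VILI 6 hours replicate 1. Lum (lumican, a regulator of fibril spacing) was 6.32, 7.04 and 7.84 FPKM in control, 7.34, 6.87 and 4.65 at 0 hours and 3.07, 3.64 and 3.08 at 6 hours, at -0.19 (not called, adjusted p = 0.658) and -1.09 (SE 0.19, called, adjusted p = 0.0389). Ogn (osteoglycin) was at 0.22 (not called, adjusted p = 0.397) and -0.62 (called, adjusted p = 0.0587), Tnxb (tenascin X) at -0.98 (called, adjusted p = 0.0757) and -0.76 (called, adjusted p = 0.107), and Aspn (asporin) at -0.61 (called, adjusted p = 0.148) at 6 hours. Of 10 collagen receptors, 0 higher and 3 lower were called at 0 hours and 0 higher and 3 lower (0 and 4 without VILI 6 hours replicate 1) at 6 hours, with medians of -0.33 and -0.30. The integrin genes Itga1 and Itga2 were lower at both times, at -0.40 (called, adjusted p = 0.112) and -0.46 (called, adjusted p = 0.0717) for Itga1 and -0.98 (called, adjusted p = 0.0761) and -0.57 (called, adjusted p = 0.179) for Itga2. Ddr2, a receptor kinase for fibrillar collagen, was at -0.36 (called, adjusted p = 0.117) at 0 hours, and Itga11 at -0.81 (called, adjusted p = 0.163) at 6 hours. Of the genes named here, those at an adjusted p under 0.05 without VILI 6 hours replicate 1 were Tnxb, Itga1, Itga2 and Ddr2 at 0 hours and Lum, Ogn, Tnxb, Itga1 and Itga2 at 6 hours.

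Partners of type IV collagen in the basement membrane, such as laminins and nidogens, had 1 higher and 2 lower (1 and 4 without VILI 6 hours replicate 1) of 15 called at 0 hours and 3 higher and 2 lower (3 and 1 without VILI 6 hours replicate 1) at 6 hours, with medians of -0.16 and -0.095. The median at 6 hours was -0.060 without VILI 6 hours replicate 1. Lama1, a laminin alpha chain of early basement membranes, was 0.307, 0.523 and 0.285 FPKM in control, 0.0611, 0.0950 and 0.0648 at 0 hours and 0.822, 0.720 and 0.649 at 6 hours, with log2 fold changes of -1.41 (SE 0.30, called, adjusted p = 0.0768) at 0 hours, 0.84 (SE 0.30, called, adjusted p = 0.173) at 6 hours and 2.26 (SE 0.30, called, adjusted p = 0.115) between the VILI groups. At 6 hours it was 0.77 (not called, adjusted p = 0.130) without replicate 1. Lamc3 was at 0.82 (called, adjusted p = 0.0886) and 0.88 (called, adjusted p = 0.0694) at 0 and 6 hours, and Lama5, a laminin alpha chain of mature basement membranes, was called for VILI 6 hours vs VILI 0 hours at 0.43 (called, adjusted p = 0.425). Of 13 elastic fibre genes, the other load-bearing fibre of the lung, 0 higher and 4 lower (1 and 6 without VILI 6 hours replicate 1) were called at 0 hours and 0 higher and 6 lower (2 and 6 without VILI 6 hours replicate 1) at 6 hours, with medians of -0.26 and -0.26. Mfap5, a microfibril glycoprotein, was 26.3, 32.8 and 25.5 FPKM in control, 20.01, 24.2 and 18.0 at 0 hours and 10.9, 14.3 and 8.70 at 6 hours, at -0.44 (SE 0.19, called, adjusted p = 0.292) and -1.33 (SE 0.19, called, adjusted p = 0.0257). Fbn2 (fibrillin-2) was close to the filter, at 0.289 to 0.349 FPKM in control and 0.0481 to 0.184 in the ventilated libraries. Its changes were -1.39 (called, adjusted p = 0.110) and -1.13 (called, adjusted p = 0.143), and Mfap4 was at -0.79 (called, adjusted p = 0.122) and -0.67 (called, adjusted p = 0.143). Fbln2 (fibulin-2) was at -0.61 (called, adjusted p = 0.146) at 6 hours. Of the genes named here, those at an adjusted p under 0.05 without VILI 6 hours replicate 1 were Lama1, Lamc3, Fbn2 and Mfap4 at 0 hours and Lamc3, Mfap5 and Fbn2 at 6 hours.

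Fibroblasts make most fibrillar collagen, and the summed level of their markers was lower in the VILI libraries. The 12 lung fibroblast markers summed to 1453 to 1565 FPKM in control, 1138 to 1275 at 0 hours and 844 to 1186 at 6 hours, without overlap of either VILI group with control. Inmt alone held 41.3% to 61.6% of that sum, and the other 11 summed to 601 to 723 FPKM in control, 481 to 517 at 0 hours and 448 to 615 at 6 hours, where VILI 6 hours replicate 2 lay within the control range. Of the 12, 0 higher and 3 lower (0 and 5 without VILI 6 hours replicate 1) were called at 0 hours and 0 higher and 4 lower (1 and 6 without VILI 6 hours replicate 1) at 6 hours, with medians of -0.13 and -0.44, and none was at 0. Over all genes 9.35% were lower at 0 hours and 12.2% at 6 hours, and 14.2% and 26% without that library. Inmt, the most abundant, was 771, 775 and 964 FPKM in control, 678, 762 and 657 at 0 hours and 575, 571 and 349 at 6 hours, with a log2 fold change of -0.78 (called, adjusted p = 0.0967) at 6 hours. Pdgfra, a defining marker, was 86.2, 79.8 and 74.9 FPKM in control, 90.8, 76.8 and 76.3 at 0 hours and 72.8, 137 and 113 at 6 hours, with 0.016 (not called, adjusted p = 0.979) and 0.38 (not called, adjusted p = 0.309). Without VILI 6 hours replicate 1 Pdgfra was higher, at 0.63 (called, adjusted p = 0.00886) for VILI 6 hours vs control and 0.62 (called, adjusted p = 0.0438) for VILI 6 hours vs VILI 0 hours, opposite to the sum. Slit2 was lower at both times at -0.88 (called, adjusted p = 0.113) and -0.73 (called, adjusted p = 0.140), as were Npnt at -0.38 (called, adjusted p = 0.186) and -0.56 (called, adjusted p = 0.0733) and Mfap4. The markers named here were chosen after their values were seen. Mfap4 is in both this list and that of elastic fibres, and Dpt in this list and that of fibril-binding proteins. The 11 smooth muscle and pericyte markers summed to 270.2 to 340.2 FPKM in control, 302 to 432 at 0 hours and 289 to 432 at 6 hours, with 1 higher and 1 lower (1 and 2 without VILI 6 hours replicate 1) at 0 hours and 1 higher and 1 lower (0 and 1 without VILI 6 hours replicate 1) at 6 hours. The 10 endothelial markers, of cells that produce type IV collagen, summed to 1370.4 to 1401 FPKM in control, 1402 to 1603 at 0 hours and 1245 to 1468 at 6 hours, with 2 higher and 0 lower (4 and 1 without VILI 6 hours replicate 1) at 0 hours and 0 higher and 3 lower (4 and 4 without VILI 6 hours replicate 1) at 6 hours, beside 6.81% and 8.17% of all genes higher (8.98% and 12.8% without that library). With all libraries Emcn and Ramp2 were higher at 0 hours, and Emcn, Tie1 and Car4 lower at 6 hours. Without VILI 6 hours replicate 1 Pecam1, Cdh5, Cldn5 and Ramp2 were higher and Tie1, Kdr, Emcn and Car4 lower at 6 hours. The part of any of these in the collagen results was not tested.

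Neutrophil markers, of cells that enter the injured lung, were mostly higher. The 9 genes summed to 112 to 129 FPKM in control, 699 to 1086 at 0 hours and 612 to 2886 at 6 hours, with 7 higher and 0 lower (8 and 0 without VILI 6 hours replicate 1) at 0 hours and 9 higher and 0 lower at 6 hours. Their part in the collagen results was not tested. The 8 alveolar type 1 markers summed to 1493 to 1539 FPKM in control, 1455 to 1768 at 0 hours and 1234 to 1852 at 6 hours, the 7 airway epithelial markers to 25273 to 27719.6 FPKM in control, 30039 to 32873 at 0 hours and 23602.5 to 41652 at 6 hours with VILI 6 hours replicate 1 the highest, and the 9 alveolar type 2 markers had 1 higher and 0 lower (3 and 1 without VILI 6 hours replicate 1) at 0 hours and 0 higher and 1 lower (1 and 3 without VILI 6 hours replicate 1) at 6 hours. The 7 mesothelial markers summed to 114 to 126 FPKM in control, 116 to 137 at 0 hours and 113 to 199.6 at 6 hours, with 0 higher and 0 lower (0 and 2 without VILI 6 hours replicate 1) and 2 higher and 0 lower (1 and 3 without VILI 6 hours replicate 1). The 8 cardiac muscle markers summed to 170.4 to 202 FPKM in control, 171 to 378 at 0 hours and 182 to 196 at 6 hours and the 7 Schwann cell markers to 142 to 153 FPKM in control, 175 to 212 at 0 hours and 170.4 to 205 at 6 hours. Of 11 cartilage markers, 6 passed the filter and Cnmd was at 0 in all libraries, and the list summed to 33.3 to 38.5 FPKM in control, 40.6 to 41.7 at 0 hours and 27.6 to 38.8 at 6 hours, while the cartilage collagens Col2a1, Col9a1 and Col10a1 were below the filter.

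**Figure D5:**
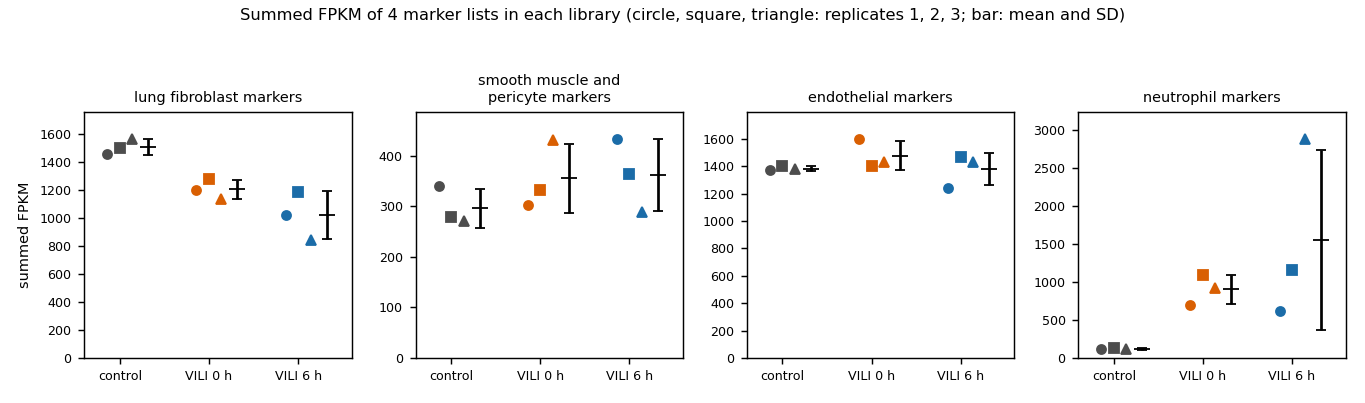
Summed FPKM (y axis, from 0) of lung fibroblast, smooth muscle and pericyte, endothelial and neutrophil marker genes in each library (x axis), with replicates 1, 2 and 3 as circle, square and triangle and the mean and SD of 3 libraries. The fibroblast sum is lower and the neutrophil sum higher in every VILI library than in every control library, and the fibroblast sum holds Inmt, the most abundant of its genes.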

How the data were processed

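Per the study's methods and the submitters' processing notes, reads of total lung RNA were filtered, aligned to GRCm38 with TopHat2 2.0.9 and Bowtie2 2.0.6, transcripts were assembled, and the authors computed FPKM with Cuffdiff 2.1.1. The methods describe directional libraries depleted of ribosomal RNA whereas the labels name a TruSeq RNA kit, so how the libraries were made is not settled here. The deposited table held FPKM for 60108 transcript rows in 9 libraries, with 3490 assembled loci among its genes, and 23503 of 23713 Ensembl gene IDs matched GENCODE M21. Rows were summed per gene. The members, classes and gene lists were chosen with earlier results of these data known. Genes with a mean of at least 0.1 FPKM (19378) were tested on log2(FPKM + 0.1) with limma 3.58.1 (lmFit, eBayes with trend, R 4.3.3), in 1 fit of 9 libraries without a block. Fold changes on this scale understate changes of low genes. P under 0.05 was the threshold of the study, and adjusted p-values are Benjamini-Hochberg over all genes tested. Exact permutation tests were two-sided. In the main fit limma P-values measure only the spread between libraries within a group, pooled over the 3 groups and drawn toward a trend over all genes. The fit was tested on simulated data with 200 changed genes for VILI 6 hours vs control and recovered 91% of those changed by 3 on the log2 scale. Members named were those with a P under 0.05 in any comparison, the 3 most abundant of each class, every type IV chain, and Col1a1, Col1a2 and Col3a1. From the lists of collagen processing, binding, receptors, basement membrane and elastic fibres, at most the 4 called genes with the largest change were named, and 1 result is not reported here. Marker genes were named after their values were seen. Alternatives were other pseudocounts, filters, centring, groups fitted, trend, block, row choice and each library left out. Replicate numbers in the labels did not pair the libraries. FPKM gives no counts, so no counting intervals were computed.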

Additional observations from a re-analysis of the deposited data

Results flagged for a closer look

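Col12a1, a fibril-associated collagen, was singled out because its change from control differed between the VILI groups by a direct test. The log2 difference of VILI 6 hours minus VILI 0 hours was -0.29 (called by limma before adjustment, adjusted p = 0.443), with all VILI 6 hours libraries below all VILI 0 hours libraries. It failed the correction over all genes.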

How the results depend on the processing

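Collagen genes called for VILI 0 hours vs control numbered 7, and 11 (3 higher and 8 lower) when those groups were fitted alone, where 3 passed the adjusted threshold. Of the 19378 genes in that fit, 1896 were called higher and 3198 lower, and 733 and 864 passed the adjusted threshold. For VILI 6 hours vs control the 10 calls became 5 with median-centred libraries, 6 with those groups fitted alone and 5 with the highest transcript row per gene. All of these were lower, where 1640, 1937 and 2027 of all genes were lower. The median of the members moved from -0.22 to -0.092 with median-centred libraries, and to -0.069 when VILI 6 hours replicate 1 was also left out, a setting chosen after seeing the data. The 1 call for VILI 6 hours vs VILI 0 hours became 0 with median-centred libraries, these groups alone, the replicate block or the highest row. With centring and without VILI 6 hours replicate 1, adjusted calls were 3 at 0 hours, 7 at 6 hours and 2 between the VILI groups, where 5 had a P under 0.05. Over all 19378 genes the adjusted calls were 910 higher and 395 lower at 0 hours and 2523 and 1504 at 6 hours. Between the VILI groups they were 222 and 103, and 2351 and 1794 had a P under 0.05. The cause was not tested.

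Leaving out each library in turn gave 2 to 12, 4 to 14 and 0 to 7 calls in the 3 comparisons, and 0 to 3, 0 to 9 and 0 to 3 at the adjusted threshold. Without VILI 6 hours replicate 1 there were 12, 14 and 7. Omitting the first control library gave 3 calls at 0 hours and 6 at 6 hours, where 1116 and 1511 of all genes were lower. Omitting control replicate 2 gave 2 and 4, where 1062 and 1382 were lower. Omitting the VILI 0 hours library numbered 3 gave 3 at 0 hours (1191 of all genes lower). Omitting the VILI 6 hours library numbered 3 gave 5 at 6 hours (1450 lower). Omitting either of the last 2 left 0 calls between the VILI groups.

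Col12a1 between the VILI groups reversed to 0.14 with the highest row. Col4a3 at 6 hours reversed from -0.049 to 0.28, called higher, with centring and without VILI 6 hours replicate 1. Centring moved all genes called at 0 hours from 1319 higher and 1811 lower to 1944 and 1232, and at 6 hours from 1583 and 2369 to 2270 and 1640. Col27a1 at both times, Col3a1 at 0 hours and Col8a1 at 6 hours were called under all 20 alternatives. Same-numbered libraries had correlations of their deviations from the group means of -0.22 to 0.017, so the numbers did not pair them, and a replicate block gave 9, 9 and 0 lower calls in the 3 comparisons. FPKM values hold no read counts, so the counting error of low genes was not assessed.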
